A study of Mus musculus with 8 samples.

Results

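Mitochondrial mass and shape depend in part on 3 groups of genes. Transcripts of these genes were followed here in bone MSCs (mesenchymal stem cells, which can form bone, fat and cartilage cells) kept at low or high oxygen. The 10 genes described are Ppargc1a, Ppargc1b, Tfam and Nrf1 for biogenesis, Mfn1, Mfn2 and Opa1 for fusion, and Dnm1l, Fis1 and Mff for fission. They were chosen by gene symbol from the 53465 gene identifiers of the RNA-seq count table, and each symbol matched 1 identifier. A filter on low counts kept 8 of them among the 14369 genes tested, and Ppargc1a and Ppargc1b fell under it.

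Bone-marrow MSCs came from mice aged 3 to 5 months, described by the study as wild-type C57BL/6N males. Hypoxia samples 1 to 4 were cultured at 2% O2 and normoxia samples 1 to 4 at 21% O2, all with 5% CO2 at 37°C in control α-MEM medium, with no other treatment in either group. Per the labels the medium was changed on day 3, the cells were passaged on day 5, and MSCs were purified by flow cytometry on day 12. The study describes cells held at low oxygen until the sort, a gate on Sca-1 and PDGFRa (Ly6a and Pdgfra) without blood lineage markers, and 1 sorted population divided between the oxygen levels for a further week, so both groups share an early period at 2% O2. The study describes its RNA-seq replicates as biologically independent. Nothing in the labels says which animals gave which sample. The p-values measure the spread between these samples, which may include a technical part.

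Mitochondria are built from proteins encoded in both genomes. In the textbook account, the PGC-1 coactivators Ppargc1a and Ppargc1b act with nuclear factors such as Nrf1 (nuclear respiratory factor) to switch on mitochondrial genes, among them Tfam, which packages mitochondrial DNA and starts its transcription. Fusion joins the outer membranes through the mitofusins Mfn1 and Mfn2 and the inner membranes through the GTPase Opa1, whereas fission is carried out by the cytosolic GTPase Dnm1l (Drp1), which outer membrane proteins such as Mff and Fis1 help to recruit or regulate. Many of these steps are controlled on the proteins, which RNA counts do not measure, and counts per gene do not separate splice isoforms.

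All 12 MSC marker genes passed the filter, with a summed level of 60220 to 68860 CPM (library-scaled counts, with TMM factors) in hypoxia and 40220 to 43010 CPM in normoxia. Of these, Nt5e, Cd44 and Itgb1 rose, and Eng and Col1a1 fell (log2 change of Col1a1 -0.74), while the sort markers Ly6a and Pdgfra were not called. The difference in the sum was carried by Col1a1, and the other 11 markers summed to 10420 to 10650 CPM in hypoxia and 9776 to 10640 CPM in normoxia. Macrophage and other blood markers were also present, at 645.8 to 1375 CPM in hypoxia and 713.9 to 1387 CPM in normoxia, with Lyz2 higher and C1qa lower of 12 genes. The 8 muscle markers summed to 24.5 to 38.8 CPM in hypoxia and 8.36 to 13.9 CPM in normoxia, a difference carried by Acta1, while Ckm, Myh4, Myog and Pax7 were at 0. The 8 erythroid markers summed to at most 0.642 CPM (both globin pairs at 0), the 8 endothelial markers to 3.44 CPM (Emcn, Cldn5 and Tie1 at 0) and the 7 adipocyte markers to 14.6 CPM (Lep, Ucp1 and Pck1 at 0). The part of these markers in the results below was not tested, and in bulk RNA fewer cells of a type cannot be told from less RNA per cell. Total counts were 12898291 to 13433824 in 7 samples and 25132141 in hypoxia sample 1, so that 3 counts correspond to 0.119 to 0.233 CPM.

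The members covered a wide range of levels. Per kilobase of exon, averaged over the 8 samples, Fis1 led with 54.9 CPM per kb, followed by Mfn2 with 26.3 and Dnm1l with 17.1. Next came Mfn1 with 6.83 CPM per kb, Opa1 with 6.20, Mff with 5.53 and Tfam with 4.55, and then Nrf1 with 1.69. Ppargc1a (0.0524 CPM per kb) and Ppargc1b (0.0425 CPM per kb) closed the order, below Nrf1 in every sample. The 8 tested members were thus measured on 185 to 3338 counts per sample, whereas the PGC-1 coactivators had at most 9.

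Several neighbours in this order did not separate. Mfn1 exceeded Opa1 in 6 of 8 samples, Opa1 exceeded Mff in 7 of 8, and Ppargc1a exceeded Ppargc1b in 4 of 8. Mff was above Tfam in 8 of 8 samples although their ranges over samples overlapped. The place of Mff depends on the length used, since its merged exons (9757 bases) are far longer than its longest transcript (3918 bases). By the longest transcript Mff had 13.8 CPM per kb, lay above Opa1 in every sample, and moved from rank 6 to rank 4.

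**Figure D1:**
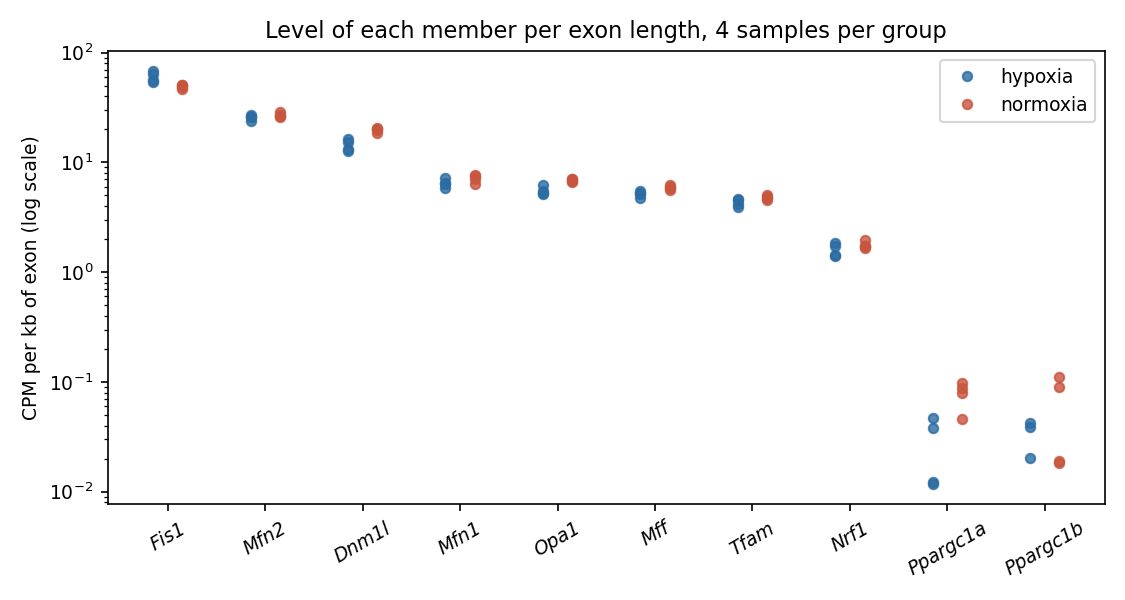
Level of each of the 10 genes in CPM per kilobase of merged exon (log axis), with 1 point per sample for hypoxia (left, 4 samples) and normoxia (right, 4 samples). Fis1 lies at 46.2 to 67.5 and Ppargc1a at 0.0118 to 0.0983, and the hypoxia sample in which Ppargc1b had a count of 0 has no point on the log axis.

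Of the 8 tested members, 4 differed between the oxygen levels in limma-trend (adjusted p under 0.05 over all 14369 genes). Opa1, Dnm1l and Mff rose in normoxia, and Fis1 fell. The background was high, with 34.6% of all tested genes called, 18.0% higher and 16.5% lower, so a count of 4 in 8 is not by itself a feature of these genes. For all 4 the groups did not overlap, which held for 32.6% of all tested genes. The changes were modest, since the median size of change over all genes was 0.24 on the log2 scale, and Dnm1l lay at percentile 79.6 of that distribution, Opa1 at 63.5, Fis1 at 58.7 and Mff at 42.8.

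Dnm1l (ENSMUSG00000022789, GRCm38 chromosome 16, 16312230 to 16358959, minus strand) changed most. Hypoxia samples 1 to 4 had 84.9, 79.4, 66.4 and 69.3 CPM, and normoxia samples 1 to 4 had 107.4, 102.0, 105.4 and 97.0 CPM. Every normoxia sample was above every hypoxia sample, and the hypoxia samples were the more spread. On the log2 scale the mean rose from 6.22 ± 0.17 to 6.69 ± 0.06 (SD, n = 4 each), a change of 0.46 ± 0.08 (SE) or 1.38-fold (limma-trend, adjusted p = 0.0010). The 4 same-numbered pairs differed by 0.34, 0.36, 0.67 and 0.48. Dnm1l encodes the mechanical enzyme of division, and an antisense gene (Gm49521) that is not among the counted identifiers shares 4.67% of its exon bases.

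Opa1 (ENSMUSG00000038084, chromosome 16, 29579334 to 29654884, plus strand), the inner membrane fusion GTPase that also holds cristae closed, had 43.2, 48.7, 40.7 and 41.0 CPM in hypoxia. In normoxia it had 55.6, 53.4, 51.8 and 56.1 CPM. The groups were apart, with hypoxia sample 2 nearest to the normoxia samples. Its log2 level rose from 5.44 ± 0.12 to 5.77 ± 0.05 (SD, n = 4 each), a change of 0.32 ± 0.07 (SE) or 1.25-fold (limma-trend, adjusted p = 0.0043).

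Fis1 (ENSMUSG00000019054, chromosome 5, 136953275 to 136966234, plus strand), a tail-anchored outer membrane protein whose part in recruiting Dnm1l in mammals is debated, went the other way. Hypoxia samples 1 to 4 had 96.2, 93.2, 115.6 and 109.9 CPM, and normoxia samples had 87.0, 87.7, 84.1 and 79.2 CPM. Hypoxia samples 3 and 4 stood well above the rest, and samples 1 and 2 were only slightly above normoxia. The log2 level went from 6.69 ± 0.15 to 6.40 ± 0.07 (SD, n = 4 each), a change of -0.29 ± 0.08 (SE) or 0.818-fold (limma-trend, adjusted p = 0.011). Within pairs it was lower in normoxia in 4 of 4, by -0.14, -0.09, -0.46 and -0.47. Scaling by total counts alone, which moves the median of all genes to 0.09 and the higher share of all calls from 52.2% to 69.6%, ended this call.

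Mff (ENSMUSG00000026150, chromosome 1, 82724890 to 82752394, plus strand), the main outer membrane adaptor for Dnm1l, had 51.6, 50.4, 45.8 and 53.1 CPM in hypoxia. The normoxia samples had 60.5, 57.0, 57.9 and 55.1 CPM, so the groups were separated by a narrow gap. The log2 change was 0.20 ± 0.06 (SE; from 5.65 ± 0.09 to 5.85 ± 0.06, SD, n = 4 each; limma-trend, adjusted p = 0.033). This call was the least stable of the 4: it was lost in DESeq2 and when hypoxia sample 3 or any 1 of the normoxia samples was left out, with an adjusted p of up to 0.115 in limma-trend.

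**Figure D2:**
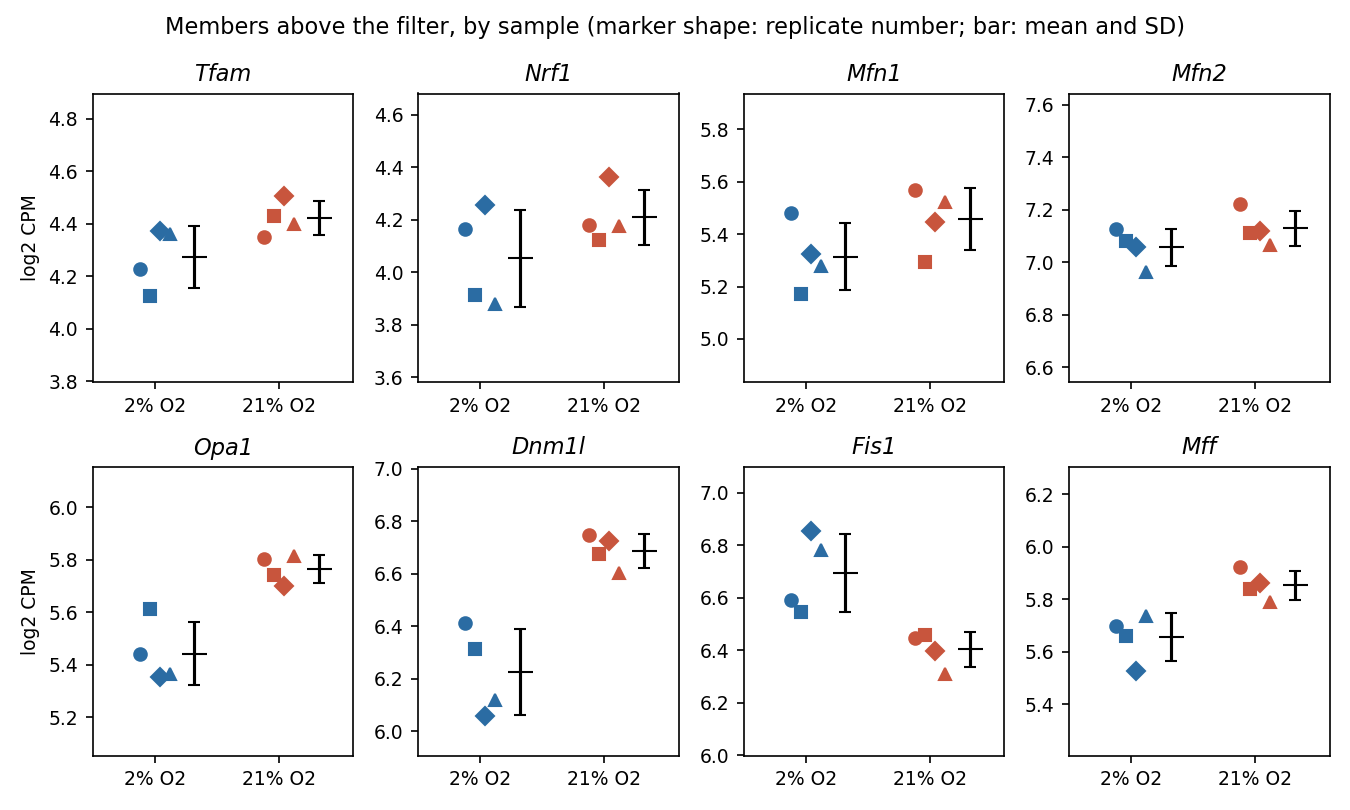
Log2 CPM of the 8 tested genes in each hypoxia (2% O2) and normoxia (21% O2) sample, with marker shape for the replicate number and a bar for mean and SD (n = 4); every panel spans the same log2 range. Opa1, Dnm1l and Mff lie higher in every normoxia sample, Fis1 lies lower, and the groups overlap for Tfam, Nrf1, Mfn1 and Mfn2.

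The mitofusins, which tether and join outer membranes, were not called. Mfn1 (ENSMUSG00000027668, chromosome 3, 32529465 to 32579239, plus strand) had 35.9 to 44.5 CPM in hypoxia and 39.0 to 47.2 CPM in normoxia, a log2 change of 0.14 ± 0.08 (SE; 95% interval -0.04 to 0.32; limma-trend, adjusted p = 0.21). Mfn2 (ENSMUSG00000029020, chromosome 4, 147873599 to 147904704, minus strand) had 124.4 to 139.5 CPM in hypoxia and 133.7 to 149.1 CPM in normoxia, a change of 0.07 ± 0.06 (SE; interval -0.05 to 0.20; limma-trend, adjusted p = 0.37). Both groups overlapped for each gene, although the normoxia sample was the higher in 4 of 4 same-numbered pairs. The interval of Mfn2 ends below the change fitted for Opa1, the other fusion gene, and that of Mfn1 ends at about that change. The interval of Opa1 itself (0.17 to 0.48) overlaps both, and a difference between these genes was not tested. The log2 ratio of Mfn2 to Mfn1 averaged 1.75 ± 0.12 at 2% O2 and 1.68 ± 0.11 at 21% O2 (SD, 4 samples each), with overlap.

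Among the biogenesis genes, Tfam and Nrf1 were measured well and not called. Tfam (ENSMUSG00000003923, chromosome 10, 71225464 to 71238280, minus strand) had 17.3 to 20.5 CPM in hypoxia and 20.2 to 22.5 CPM in normoxia, a log2 change of 0.15 ± 0.08 (SE; 95% interval -0.03 to 0.33; limma-trend, adjusted p = 0.20). Nrf1 (ENSMUSG00000058440, chromosome 6, 30047988 to 30153458, plus strand) had 14.5 to 18.9 CPM in hypoxia and 17.2 to 20.4 CPM in normoxia, a change of 0.16 ± 0.11 (SE; interval -0.07 to 0.39; limma-trend, adjusted p = 0.28). The groups overlapped for both, with the normoxia sample higher in 4 of 4 pairs, and an increase of the size fitted for Opa1 lies within both intervals.

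Ppargc1a (ENSMUSG00000029167, chromosome 5, 51454250 to 51567726, minus strand), the coactivator induced in muscle, liver and brown fat by exercise, fasting and cold, had counts of 6, 1, 1 and 4 in hypoxia samples 1 to 4. It had 7, 9, 8 and 4 in normoxia samples 1 to 4. The mean was 0.179 ± 0.118 CPM at 2% O2 and 0.512 ± 0.150 CPM at 21% O2 (SD, 4 samples each). The groups overlapped, because hypoxia sample 4 was as high as normoxia sample 4. Summed over samples, 12 counts stood against 28, a ratio of rates of 2.84 with an exact Poisson interval of 1.40 to 6.13 (95%, counting error only). Fitted without the filter among 24446 genes, limma-trend gave a log2 change of 0.92 ± 0.29 (SE) and an adjusted p of 0.045, the edgeR quasi-likelihood test an adjusted p of 0.10, DESeq2 0.11, and limma-trend with replicates as blocks 0.050. The direction was shared and the call depended on the tool.

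Ppargc1b (ENSMUSG00000033871, chromosome 18, 61298136 to 61400431, minus strand), its close relative, had counts of 4, 1, 2 and 0 in hypoxia and 6, 5, 1 and 1 in normoxia. With 7 counts against 13 in all, the ratio of rates was 2.26 (interval 0.838 to 6.69), and no difference was detectable at this depth (limma-trend without the filter, adjusted p = 0.39).

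**Figure D3:**
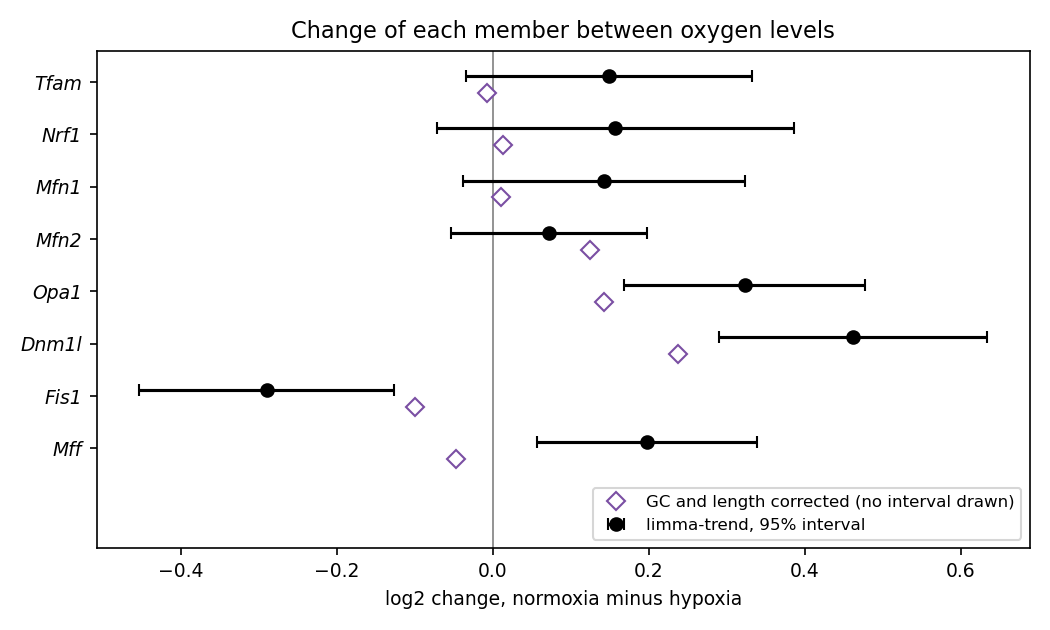
Log2 change of each tested gene, normoxia minus hypoxia, as fitted by limma-trend with its 95% interval (filled circles), and after a correction for transcript GC content and length (open diamonds, no interval drawn). The intervals of Opa1, Dnm1l, Fis1 and Mff leave out 0, and after correction Dnm1l is at 0.24, Opa1 at 0.14, Fis1 at -0.10 and Mff at -0.05.

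The called members lay at both ends of the members' range of transcript base composition, with the rises at low and the fall at high GC content. Mff (37.3% GC), Dnm1l (40.9%) and Opa1 (43.6%) lie in the lowest of 4 equal GC bins, where the median change of all genes was 0.19 and 33.6% of genes were called higher against 5.13% lower. Tfam, Nrf1 and Mfn1 lie in the second bin (median change 0.07; Tfam, at 44.9%, is at its lower edge) and Mfn2 in the third (-0.05). Fis1 (54.4% GC) lies at the lower edge of the highest bin, where the median change was -0.18 and 31.4% of genes were called lower. The change of Mff was thus near that of the genes of like composition, whereas that of Dnm1l was above it.

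A correction of each sample for GC content and transcript length left 29.5% of genes called and 1 of the 8 members, Dnm1l (0.24, limma-trend, adjusted p = 0.022). Opa1 then had 0.14 (adjusted p = 0.083), Fis1 -0.10 (adjusted p = 0.22) and Mff -0.05 (adjusted p = 0.59), all in limma-trend, so Mff changed sign. With replicates as blocks as well, which called 43.2% of all genes, Dnm1l (adjusted p = 0.00036), Opa1 (adjusted p = 0.045) and Mfn2 (0.12, adjusted p = 0.025) were called higher in limma-trend, while Fis1 (adjusted p = 0.13) and Mff (adjusted p = 0.54) were not. The block without the correction called the same 4 members as the fit without it, with 46.0% of all genes called. Whether the GC trend arose in the cells or in library preparation was not tested.

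**Figure D4:**
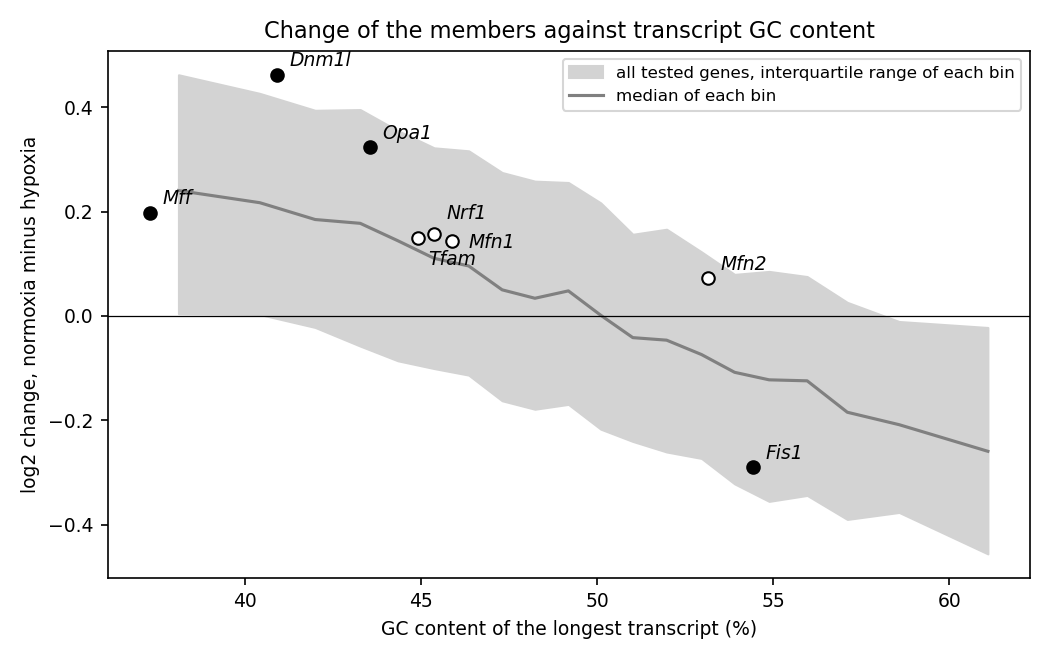
Log2 change, normoxia minus hypoxia, of the 8 tested genes (filled where adjusted p is under 0.05) against GC content of the longest transcript, over the median (line) and interquartile range (band) of all tested genes in 20 bins of GC content. The line falls from 0.24 in the lowest bin to -0.26 in the highest, with Mff near it, Dnm1l above the band and Fis1 below the line.

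Without GC and length correction, the fission genes Dnm1l and Mff moved against Fis1. With the correction Mff (-0.05) and Fis1 (-0.10) had the same sign and neither was called, while Dnm1l (0.24) was. The shift of summed fission against summed fusion levels depended on how genes were weighted. The log2 ratio of summed fusion to summed fission CPM averaged -0.08 ± 0.08 at 2% O2 and -0.04 ± 0.06 at 21% O2 (SD, 4 samples each), a difference of 0.04 with overlap. Counted per kilobase, which gives the short Fis1 more weight, the ratio ran from -1.22 to -0.97 in hypoxia and from -0.95 to -0.81 in normoxia, a difference of 0.22 without overlap and higher in normoxia in 4 of 4 pairs. The log2 ratio of Dnm1l to Fis1 was -0.18, -0.23, -0.80 and -0.66 in hypoxia samples 1 to 4 and 0.30, 0.22, 0.33 and 0.29 in normoxia samples 1 to 4. Fis1 had more counts than Dnm1l in every hypoxia sample and fewer in every normoxia sample, and as both genes were picked out by their calls this ratio is a description without a test.

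The genes around the members were taken from fixed lists, which also hold the members themselves. Of 17 tested genes for fusion and its regulators, 4 rose and 1 fell, with a median change of 0.10 against 0.005 over all genes. Over all tested genes 18.0% were called higher and 16.5% lower. With blocks and GC correction 43.2% were called in either direction, 3109 genes higher and 3093 lower of 14353. The lists are to be read against these shares. Yme1l1, the inner membrane protease that cleaves OPA1, rose by 0.71 ± 0.06 (SE; 1.63-fold; limma-trend, adjusted p = 3.8e-05), more than any of the 8 tested members, and was still called after GC correction with blocks (0.46). Oma1, the stress-activated protease that cuts the same protein, had 0.16 (adjusted p = 0.22 in limma-trend). Phb2, an inner membrane scaffold protein, fell by 0.27 on the log2 scale (limma-trend, adjusted p = 0.014), a call lost by total counts alone (adjusted p = 0.075) and with GC correction without blocks (adjusted p = 0.081). Besides Opa1, the others that rose were the matrix-side protease genes Afg3l2 (0.21, with overlap of the groups) and Spg7 (0.20). With blocks and GC correction 8 of the 17 were called higher and 1 lower.

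Of 23 genes for fission and its regulators, 8 rose and 4 fell (median change 0.17), or 9 and 1 with blocks and GC correction. Senp5, a SUMO protease that acts on Drp1, rose by 0.47 ± 0.10 (SE; limma-trend, adjusted p = 0.0030), and Gdap1, an outer membrane protein, rose by 0.68 ± 0.22 at only 17 to 38 counts per sample (limma-trend, adjusted p = 0.032). Cdk5, a kinase, fell by 0.24 (limma-trend, adjusted p = 0.029), and the others that fell beside Fis1 were Mtfr1l (-0.17) and Ppp3cb (-0.16). The calls of Gdap1 and Cdk5 were each lost on leaving out any of 4 samples (adjusted p up to 0.10 and 0.082 in limma-trend), for Gdap1 hypoxia sample 1 or normoxia samples 1 to 3, and for Cdk5 hypoxia samples 1 to 3 or normoxia sample 3. Neither was called with blocks and GC correction (adjusted p = 0.093 for Gdap1 and 0.14 for Cdk5 in limma-trend). The other Drp1 adaptors Mief1 (0.07, adjusted p = 0.53) and Mief2 (0.13, adjusted p = 0.55), and the inner membrane protein Mtfp1 (0.17, adjusted p = 0.74), were not called in limma-trend, but with blocks and GC correction Mief2 was (0.30, adjusted p = 0.021).

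Of the genes that move mitochondria along the cytoskeleton 6 of 8 rose and 0 fell, where 18.0% of all genes rose, and their median change was 0.29. Kif5b, a kinesin heavy chain, rose by 0.81 ± 0.09 (SE; 1.75-fold; limma-trend, adjusted p = 0.00010), and Rhot1 (Miro), which links mitochondria to the motors, rose by 0.45 ± 0.07 (limma-trend, adjusted p = 0.00047). With blocks and GC correction 5 of the 8 were called higher and the median was 0.24. In the MICOS and cristae list 1 of 11 rose and 2 fell. Immt, the core MICOS subunit, rose by 0.47 (limma-trend, adjusted p = 0.0047), whereas 2410015M20Rik, a small MICOS subunit, and Samm50, an outer membrane assembly protein, had -0.29 and -0.28 (limma-trend, adjusted p = 0.0043 and 0.0054). With blocks and GC correction Immt (0.24) and Samm50 (-0.24) were still called, and 2410015M20Rik was not (-0.12, limma-trend, adjusted p = 0.086). Immt lost its call with the correction alone (limma-trend, adjusted p = 0.072).

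Upstream of the biogenesis members, 2 of 11 coactivators and nuclear factors (the member Nrf1 among the 11) rose and 0 fell. These were Gabpa, the DNA-binding chain of a respiratory gene activator (0.29, limma-trend, adjusted p = 0.0033; 0.07 with blocks and GC correction, adjusted p = 0.37), and the zinc finger factor Yy1 (0.25, limma-trend, adjusted p = 0.0063). Pprc1, the PGC-1-related coactivator (0.14, adjusted p = 0.27, or 0.037 without hypoxia sample 1), and the nuclear receptors Esrra (0.10, adjusted p = 0.51) and Pparg (-0.16, adjusted p = 0.30) were not called in limma-trend. With blocks and GC correction Pprc1 was called higher (0.26, limma-trend, adjusted p = 0.0016). Of 19 regulators acting on PGC-1 proteins 7 rose and 1 fell, or 3 and 3 with blocks and GC correction. Both catalytic subunits of AMPK rose, Prkaa1 by 0.30 (adjusted p = 0.0031 in limma-trend) and Prkaa2 by 0.52 (adjusted p = 0.0097 in limma-trend), but with blocks and GC correction neither was called (adjusted p = 0.30 and 0.11). The kinase gene Camk4 rose by 0.37 (limma-trend, adjusted p = 0.019, and up to 0.068 without hypoxia sample 3 or 4 or normoxia sample 2 or 4). The transcription factor gene Mef2c, whose groups overlapped, had -0.61 (adjusted p = 0.012 in limma-trend), and the deacetylase gene Sirt1 had -0.05 (adjusted p = 0.77 in limma-trend).

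Downstream, 0 of 10 genes for mitochondrial DNA transcription (the member Tfam among the 10) were called, or 1 with blocks and GC correction, Polrmt (0.21, limma-trend, adjusted p = 0.032). Without these Polrmt, the polymerase gene, had a log2 change of 0.02 (adjusted p = 0.90 in limma-trend) and its partner Tfb2m 0.10 (adjusted p = 0.37 in limma-trend), although the median of the list, 0.17, was above that of all genes. Of 15 genes for mitochondrial DNA replication and maintenance 3 rose and 2 fell. Lig3 and Rnaseh1, a DNA ligase and a nuclease for RNA paired with DNA, had log2 changes of 0.36 and 0.32 (adjusted p = 0.010 and 0.044 in limma-trend), and the protease gene Lonp1, whose product degrades TFAM, fell by 0.23 (limma-trend, adjusted p = 0.0082). The call of Lonp1 was lost by total counts alone (-0.15, adjusted p = 0.055) and with blocks and GC correction (-0.11, adjusted p = 0.060), both in limma-trend. Atad3a (0.37) and Endog (-0.63), whose groups overlapped, were the others called. The call of Rnaseh1 was lost on leaving out hypoxia samples 2, 3 or 4 or normoxia samples 2, 3 or 4, with an adjusted p of up to 0.13 in limma-trend, and with blocks and GC correction (adjusted p = 0.066). The polymerase Polg (-0.03, adjusted p = 0.83) and the helicase Twnk (-0.15, adjusted p = 0.21) were not called in limma-trend.

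Among 11 tested genes known to respond to PGC-1 and ERR, 2 rose and 2 fell, 3 and 3 with blocks, or 4 and 4 with blocks and GC correction, where 43.2% of all genes were called. Pdk4, which restrains pyruvate oxidation, rose by 0.53 (limma-trend, adjusted p = 0.0030), and Atp5o, an ATP synthase subunit, fell by 0.46 (limma-trend, adjusted p = 0.00034). Idh3a (0.28) and Cox5b (-0.28), whose groups overlapped, were the others called. Mitochondrially encoded protein genes took 0.730% ± 0.057 of counts at 2% O2 and 0.786% ± 0.051 at 21% O2 (SD, 4 samples each; two-sided exact permutation test over 70 assignments, p = 0.20, where the smallest possible is 0.0286). The share was higher in normoxia in 4 of 4 pairs, by 0.0569, 0.0626, 0.0628 and 0.0428 percentage points, and an exact sign-flip permutation test over the pairs gave p = 0.125, the smallest that 4 pairs allow. Of the 13 such genes 9 were tested and 1 was called, mt-Nd3, a complex I subunit (-0.40, limma-trend, adjusted p = 0.0053). The others, mt-Co2, mt-Co3, mt-Atp6 and mt-Atp8, had at most 36 counts in any sample, so the share above rests on the 9 tested genes. With blocks and GC correction mt-Nd1, mt-Nd3, mt-Nd5 and mt-Co1 were called lower, and the median of the list went from 0.08 to -0.08.

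**Figure D5:**
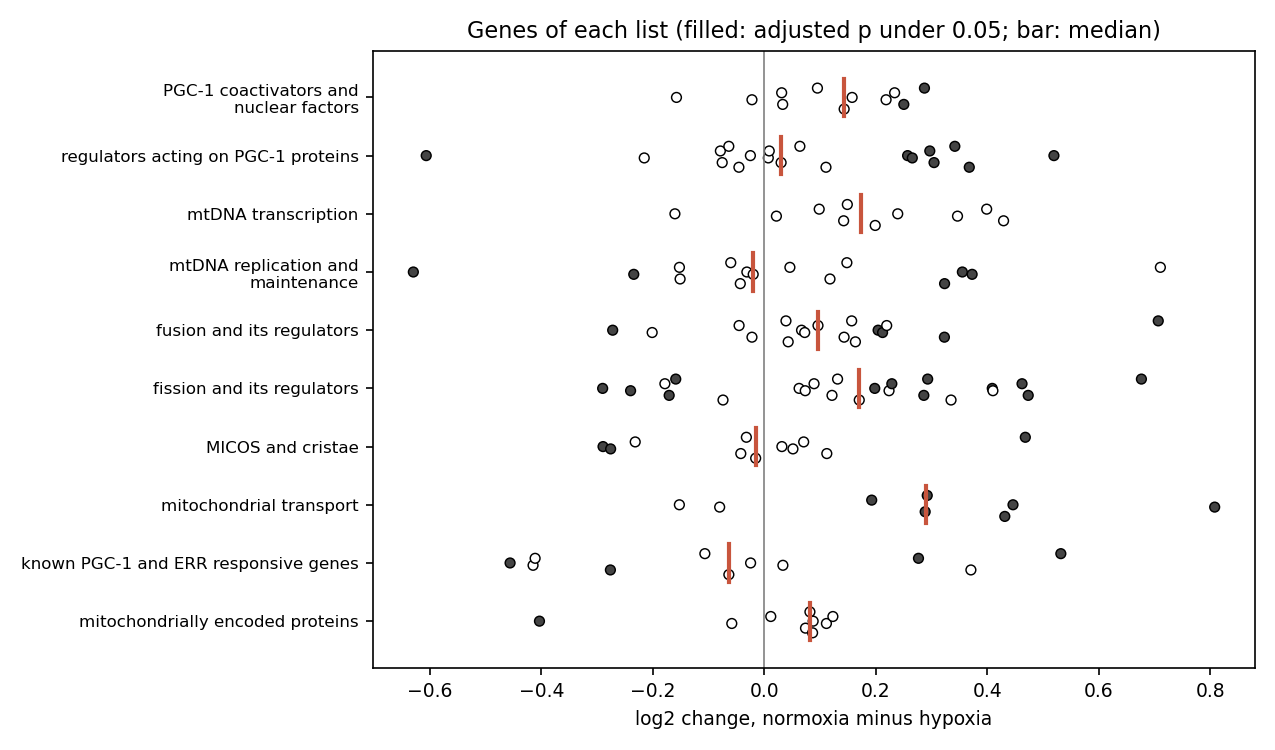
Log2 change, normoxia minus hypoxia, of each tested gene of 10 lists (filled where adjusted p is under 0.05 in limma-trend) with the median of each list as a bar. The mitochondrial transport list has 6 of 8 genes filled to the right of 0, and the mitochondrial DNA transcription list has 0 of 10 filled.

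The genes whose centred log2 levels over the 8 samples were nearest to those of Dnm1l, the called member with the largest change, were Grb14, Ddx1, Lman1, Eif5 and Edem3. Their root mean square differences from Dnm1l were 0.0336 to 0.0418, against a median of 0.325 over all genes, and their own changes were 0.44 to 0.48. Small differences and like changes follow from choosing the nearest genes in these same samples.

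The promoters of Opa1 and Tfam are shown because they carry a motif of the nuclear factors discussed above. RefSeq windows (GRCm38.p6, 250 bases before to 50 after each start site) were found for 9 of the 10 genes, 15 windows in all, and were searched on both strands. The NRF1 motif GCGCATGCG occurred in 1.75% of all 32851 windows and, among the members, in Opa1 alone. The GABPA motif, as the exact letters ACCGGAAG, occurred in 2.30% of windows and in Tfam alone. Its shorter part CCGGAAG also lies in a window of Mfn1 and in one of Fis1, which this search did not count. In the sequences, written 5′ to 3′ along the gene, capitals mark the motif. The Opa1 stretch is chr16:29579214-29579333 on the plus strand, the 120 bases before the start, with both strands matching in 1 overlapping palindrome whose first base is 59 before the start. The Tfam stretch is chr10:71238074-71238103 on the minus strand, with the motif 48 bases before the RefSeq start. The GENCODE span of Tfam begins upstream of it, at 71238280, so the stretch lies inside the annotated gene.
Opa1: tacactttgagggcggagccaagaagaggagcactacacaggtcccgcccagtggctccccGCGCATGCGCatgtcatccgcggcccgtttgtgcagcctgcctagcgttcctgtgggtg
Tfam: tcctgccgcggACCGGAAGtccgggcttcc

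The ERR motif TCAAGGTCA (0.423% of all windows) and the cyclic AMP response element TGACGTCA (1.79%) were found in 0 of the 15 member windows. The core of the hypoxia response element, ACGTG or GCGTG, is common, at 43.8% of all windows, and occurred in 9 of 15 member windows from 6 genes. In 7 of these windows, from 5 genes, a match lay before the start, while the only match of Fis1 lay after it. Opa1 rose and Tfam was not called, as given above, and a match to these letters is a description of the window only.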

How the data were processed

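RNA-seq libraries from 4 hypoxia and 4 normoxia samples were compared. Per the study, the authors aligned single-end reads to mm10 (GRCm38) with STAR within zUMIs and counted them with featureCounts on Ensembl genes. The deposited values are raw counts per gene. Use of strand, introns and reads with several positions is not given in the sources used here, so genes with near-identical copies or antisense partners are uncertain. Symbols and positions came from GENCODE M21 (GRCm38), with a symbol for 53360 of 53465 identifiers.

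As in the study, limma-trend was applied after filterByExpr with a minimum count of 5, which kept 99.9% of counts. The versions here were limma 3.58.1, edgeR 4.0.16 and R 4.3.3. Log2 CPM took a prior count of 3 and TMM factors, as the study states neither a prior count nor a normalization. p-values were Benjamini-Hochberg adjusted over all tested genes, with a threshold of 0.05. Differences are normoxia minus hypoxia, and this moderated scale understates changes of low genes. Same-numbered samples deviated together from their group means (correlations across genes 0.47, 0.28, 0.25 and 0.17), and the study divided the sorted cells. The numbers were therefore taken as pairs and fitted as blocks in an alternative. This pairing is inferred, since the labels do not state it, and differently numbered samples were not compared. Per-kb levels divide CPM by merged exon length or by the longest transcript. GC content and log2 length were corrected per sample by natural splines with 5 degrees of freedom for 14353 genes. Other alternatives were edgeR, DESeq2 1.42.0, voom, 3 scalings, filters, the prior count, the threshold, thinning of hypoxia sample 1 and leaving out each sample. Fits of the PGC-1 genes without a filter by other tools, and the sign-flip test over pairs, were added after the data were seen. Scripts were tested on simulated data.

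The text names the 10 members, 16 further fixed genes, up to 2 rises and 2 falls per list (called and not overlapping), and the 5 genes nearest to the called member with the largest change. The named marker genes and Afg3l2, Spg7, Mtfr1l, Ppp3cb, Mef2c, Atad3a, Endog, Idh3a, Cox5b, mt-Nd1, mt-Nd5 and mt-Co1 were named after their values were seen, to complete small counts. The members and lists were chosen with earlier results of these data known. Totals of 12898291 to 25132141 counts per sample set the precision, and intervals on counts cover counting error only.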

Additional observations from a re-analysis of the deposited data

Results flagged for a closer look

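Dixon's ratio was computed for 92 sets of 4 samples (the named genes, total counts and ratios), and 3 sets exceeded Dixon's 95% critical value, where chance gives about 4.6. Total count in hypoxia had a ratio of 0.976, with sample 1 at 25132141 and the others at 12929564 to 13219647. Thinning that sample to the depth of the others left the same 4 members called. Senp5 in normoxia had a ratio of 0.969, with sample 3 at 5.45 log2 CPM and the others at 5.21. Atp5o in hypoxia had a ratio of 0.891, with sample 2 at 6.86 log2 CPM and the others at 7.03 to 7.05.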

How the results depend on the processing

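Of 22 alternatives, among the 8 tested members, Dnm1l was called in 22, Opa1 in 21, Fis1 in 18 and Mff in 11, Mfn2 in 2, Mfn1 in 1, and Tfam and Nrf1 in 0. The 4 members called became 1 with the GC and length correction and 2 at an adjusted p under 0.01, where 2925 genes were called in place of 4970. With the replicate block, which takes same-numbered samples as pairs, 4 members and 6610 genes were called. Mff reversed to -0.047 with the correction, with and without the block. Leaving out 1 sample gave 3 to 5 members, and 3838 to 5423 genes. Ppargc1a then passed the filter without any 1 of the hypoxia samples or without normoxia sample 4. It passed through its counts of 7, 9 and 8 in normoxia samples 1 to 3, the group where it is high, so these calls are no test of a change. It was called without hypoxia sample 1 or 4 (5 members) and, with Mff lost, without normoxia sample 4. Without hypoxia sample 2 or 3 it was tested and not called. With no filter it was also called, with Mff lost. By total counts alone Mfn1 and Mfn2 were called and Fis1 was not. DESeq2 and upper quartile scaling called 3 members, without Mff. The change in the fusion to fission ratio went from 0.041 to 0.22 per kb, and the level of Mff from 5.53 to 13.8 CPM per kb by the longest transcript. Of 910 values for single named genes, 814 were labelled the same, 64 lost and 7 gained the call, 23 moved and 2 reversed (both Mff). For tested genes, the same means that direction and side of the threshold were kept, and moved means a change of direction without a call. For Ppargc1a and Ppargc1b both labels rest on the size of the difference alone, although Ppargc1a was called with no filter. The cause of these shifts was not tested. The depth limits Ppargc1a and Ppargc1b, at 0 to 9 counts per sample.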
